A study of Mus musculus with 10 samples.

Results

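The 41 autophagy and mitophagy genes described here were chosen by name, as known genes of the pathway. They cover autophagosome formation, the receptors that bring cargo to it, its fusion with the lysosome, and the removal of mitochondria. All 41 were found in the counts and all 41 passed the filter on low counts (more than 10 reads over the 10 libraries), so they made up 41 of the 19268 genes tested.

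The study asked whether loss of Idol (gene symbol Mylip), an E3 ubiquitin ligase that sends receptors of the LDL receptor family for degradation, changes transcription in the cortex of a mouse model of Alzheimer's disease. Polyadenylated RNA from the cortex of female mice at 4 months of age was sequenced from the 3′ end (QuantSeq) in 10 libraries. The 5 libraries labelled 5XFAD came from littermate controls that carried the 5XFAD transgenes, which drive amyloid deposition in the brain, and the 5 libraries labelled 5XFAD;Neu cKO came from mice that also carried floxed Idol alleles and Camk2a-Cre. Both groups therefore carried 5XFAD, and no mouse without it was part of the comparison. The control libraries were titled Camk2a-cre WT, and a figure legend of the study explains WT as wild type for Idol. Which floxed or Cre alleles the controls carried was not stated beyond that. Camk2a-Cre acts mainly in forebrain excitatory neurons, so other cells of the cortex should largely keep an intact Idol gene. Deletion by cell type was not measured in these libraries, and each library held RNA from all cells of the tissue. By the study's own account each group was 5 mice.

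Autophagy encloses cytoplasm, aggregates or organelles in a new membrane, the autophagosome, which fuses with the lysosome. A kinase complex around ULK1 starts the process, the VPS34 lipid kinase marks the forming membrane with phosphatidylinositol 3-phosphate, and a conjugation system similar to ubiquitination couples LC3 and GABARAP proteins to the membrane, where cargo receptors bind them. Neurons depend on this pathway throughout life, and in brains with amyloid deposits autophagosomes accumulate in swollen neurites. Much of its control acts on proteins rather than on transcript levels, and transcript counts carry no measure of flux through the pathway.

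The libraries held 4320504 to 7466192 reads on genes in the 5XFAD group and 5148499 to 7246659 in the 5XFAD;Neu cKO group (exact two-sided permutation test of the library totals, p = 0.405, n = 5 per group). The targeted gene, Mylip, had 50, 53, 108, 50 and 45 reads in the libraries labelled 5XFAD and 77, 78, 148, 112 and 50 in those labelled 5XFAD;Neu cKO. Mylip counts were thus not lower in the libraries labelled knockout (log2 fold change 0.39 ± 0.25 (SE), edgeR adjusted p = 0.777). Whether a 3′ read of Mylip falls in the floxed part was not given in the sources used here, and if it does not, these counts check nothing about the labels. The study also measured Idol mRNA by qPCR, which was not analysed here. Of 27 microglia markers tested, 27 had a fitted log2 fold change below 0 and 8 passed the threshold, all lower. Their summed level was 687 to 997 CPM (counts scaled to library size) in the 5XFAD libraries and 481 to 592 CPM in the 5XFAD;Neu cKO libraries, without overlap. Lower values were also fitted for 15 of 17 astrocyte markers (1 passed, Gfap) and 17 of 18 oligodendrocyte markers (1 passed, Mal), and for 7 of 12 excitatory neuron, 8 of 12 inhibitory neuron and 5 of 12 endothelial markers, of which none passed. Every listed neuron, astrocyte, oligodendrocyte and endothelial marker passed the filter on low counts. That filter by itself leaves out any gene at 0 in all libraries. In these bulk samples fewer cells of a type and less RNA per cell cannot be told apart.

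None of the 41 autophagy and mitophagy genes differed between the groups at an adjusted p under 0.05 (edgeR quasi-likelihood test). Over all genes tested, 42 passed that threshold, which is 0.218%, so a list of this size would hold few or no called genes at the background share. That count over all genes was 26 without 5XFAD replicate 2, 27 without 5XFAD;Neu cKO replicate 4 or 5, 72 without 5XFAD;Neu cKO replicate 1, 73 with DESeq2, 103 without the filter on low counts and 112 with the replicate number as a block, and the members' count was 0 in each. At an unadjusted p under 0.05 the count was also 0 of 41, against 7.95% of all genes tested, and DESeq2 gave 0 by adjusted p and 1 by unadjusted p. The 5XFAD and 5XFAD;Neu cKO libraries overlapped for every one of the 41 genes. Over all genes tested, 1.30% had groups that did not overlap, so a list of this size would hold few or no such genes. The fitted log2 fold change (5XFAD;Neu cKO against 5XFAD) was below 0 for 25 members and above 0 for 16, and 50.1% of all genes tested were below 0. The median over the members was -0.026 and the median over all genes tested was -0.00056. The count below 0 was 17 of 41 and the median 0.022 when 5XFAD replicate 2 was left out, so the sign of the median rested on that library.

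Log2 fold changes are given ± their standard error (SE), and positions of genes are those of GRCm39. A p that misses the threshold does not show that levels were equal, and the intervals show what size of change the data leave room for. The 95% interval of the log2 fold change lay within 0.3 of 0 for 7 members, within 0.5 of 0 for 25 members, and within 1 of 0 for 40 of the 41. The 7 closest were Gabarapl1, Rb1cc1, Sqstm1, Pink1, Map1lc3a, Map1lc3b and Becn1. The exception at 1 was Atg9a, the only member with fewer than 100 reads in all. The median absolute log2 fold change was 0.088 for the members and 0.224 for all genes tested, and the members were also the more abundant genes, with a median level of 27.6 CPM against 7.97 CPM. Their median biological coefficient of variation, the spread between libraries beyond counting noise, was 0.183 against 0.312 for all genes tested; for the genes tested between the lower and upper quartile of the members' own levels it was also 0.183.

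**Figure D1:**
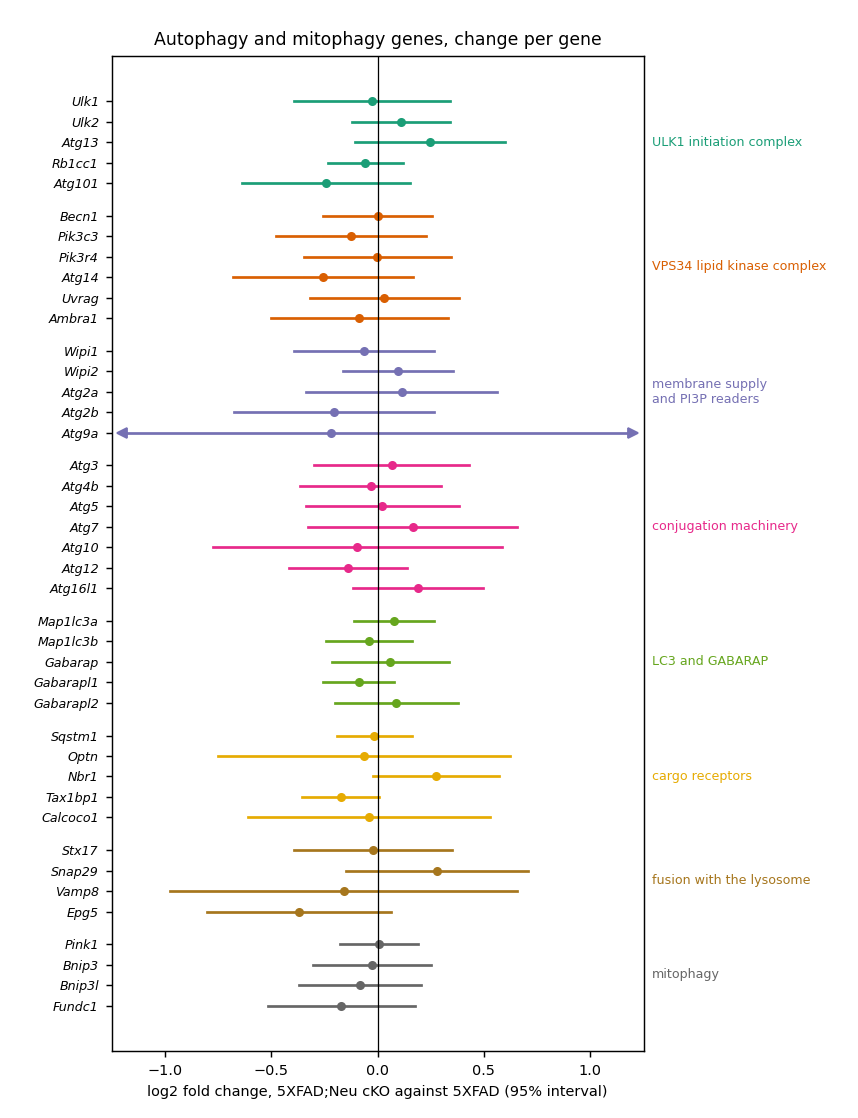
Log2 fold change of each of the 41 genes (horizontal axis, 5XFAD;Neu cKO against 5XFAD, n = 5 libraries per group; points are edgeR estimates, lines are 95% intervals, arrows mark an interval that runs past the axis), grouped and coloured by role. All 41 intervals include 0, and the interval of Atg9a runs from -2.17 to 1.74.

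**Figure D2:**
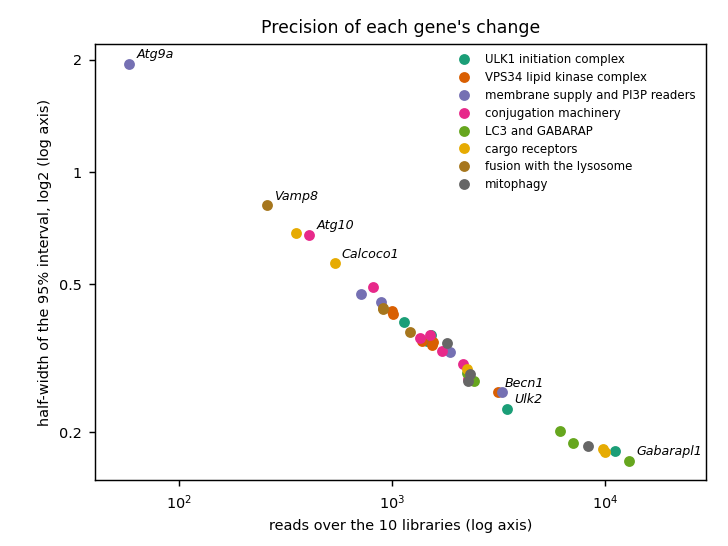
Half-width of the 95% interval of the log2 fold change (vertical, log axis) against the reads of each gene summed over the 10 libraries (horizontal, log axis), 1 point per gene, coloured by role. Intervals narrow steadily with reads, from Atg9a with 58 reads to Gabarapl1 with 12993.

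The promoters of 5 genes of the list held the letters CACGTG, the core of the E-box to which TFEB, the main transcription factor of lysosome and autophagy genes, and other basic helix-loop-helix factors can bind. They are printed because TFEB sites are a known feature of part of this pathway. RefSeq promoters (250 bases before to 50 after the start) were found for 33 of the 41 genes, and the palindromic motif, which reads the same on both strands, was in 5 of the 33, or 15.2%, against 8.09% of 27025 genes. Each line gives 50 bases on GRCm39, 5′ to 3′ on the strand of the gene, with the motif in capitals. The distance is that of the motif's first base, so for Atg14 the rest of the motif lies at and past the start.
Atg7, chr6:114647903-114647952, plus strand, 132 bases before the start: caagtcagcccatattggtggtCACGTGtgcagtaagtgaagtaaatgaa
Bnip3, chr7:138511316-138511365, minus strand, 108 bases before the start: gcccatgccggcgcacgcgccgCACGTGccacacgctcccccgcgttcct
Atg5, chr10:44144299-44144348, plus strand, 14 bases before the start: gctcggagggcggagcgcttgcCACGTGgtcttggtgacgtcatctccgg
Atg14, chr14:47805865-47805914, minus strand, 1 base before the start: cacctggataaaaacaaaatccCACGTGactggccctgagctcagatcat
Atg3, chr16:44979099-44979148, plus strand, 71 bases before the start: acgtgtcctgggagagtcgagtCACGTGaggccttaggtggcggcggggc
Atg3 held a further copy 94 bases before its start, and the copy printed sits in the longer palindrome TCACGTGA, which was in 1 of the 33 members and in 1.12% of all genes. The RefSeq start lay inside the GENCODE gene in all 5 cases, 28013 bases in for Atg7 and 18 to 2259 bases in for the others, so other start sites of these genes were not searched. The 5 genes with the motif had a median log2 fold change of 0.022 (from -0.26 to 0.17) and the 28 without it a median of -0.029. A match describes the letters in this window and no more.

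Levels within the list spanned a wide range. Because QuantSeq reads each transcript once at its 3′ end, CPM does not grow with transcript length. Levels can then be set side by side between genes, apart from reads lost where a 3′ end is not annotated or genes overlap. Mapped reads that fell on no annotated gene were 31.3% in 5XFAD replicate 2 and 39.9% in 5XFAD replicate 5. Whether Atg9a, which Gm29253 overlaps on the same strand, lost reads in this way was not tested. Above 100 CPM on average over the 10 libraries were 7 members, Gabarapl1 (225 CPM), Rb1cc1 (192 CPM), Sqstm1 (173 CPM), Tax1bp1 (171 CPM), Pink1 (143 CPM), Map1lc3a (122 CPM) and Map1lc3b (107 CPM). A clear step followed, since every library's value of Map1lc3b lay above every library's value of Ulk2, the next gene, at 59.7 CPM. Of the 40 pairs of neighbours in this order, the ranges over the 10 libraries were separate for only 2, this one and Vamp8 (4.59 CPM) above Atg9a (1.01 CPM). The order among the other neighbours was not resolved by the ranges, although some pairs kept their order within each library. Gabarapl1 was above Rb1cc1 in 10 of 10 libraries and Pink1 above Map1lc3a in 10 of 10, whereas Sqstm1 was above Tax1bp1 in 4 of 10. In all, 36 members averaged at least 10 CPM, and the 5 below it were Calcoco1, Atg10, Optn, Vamp8 and Atg9a. Together the 41 genes summed to 1942 to 2128 CPM in the 5XFAD libraries and 1927 to 2083 CPM in the 5XFAD;Neu cKO libraries, ranges that overlapped, or 0.1872% to 0.2204% of the reads on genes.

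**Figure D3:**
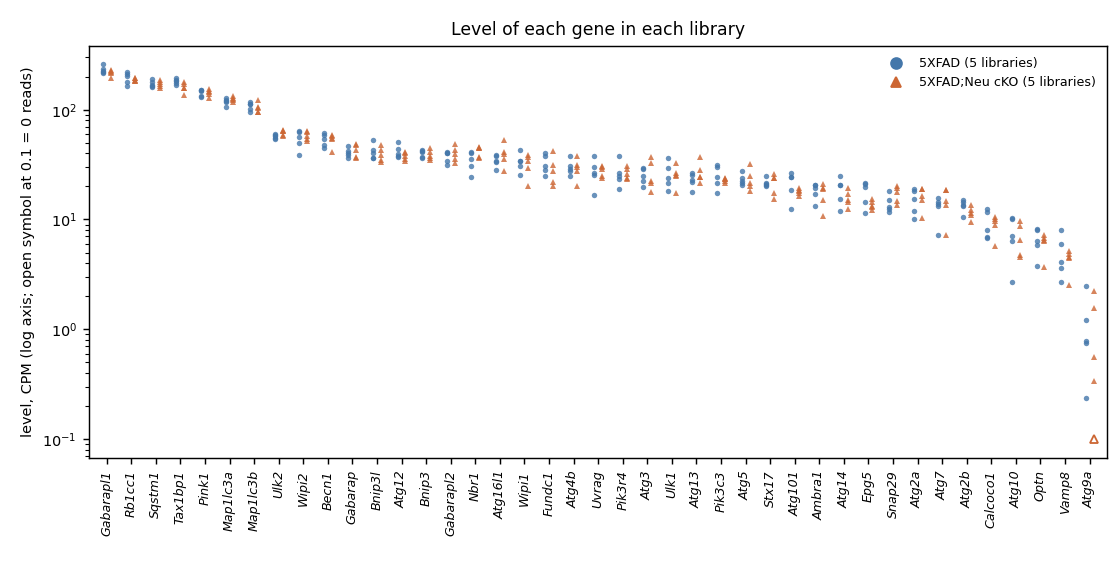
Level of each gene (vertical, CPM on a log axis) in each of the 10 libraries, ordered from the highest to the lowest mean, with 5XFAD as blue circles and 5XFAD;Neu cKO as orange triangles. The circles and triangles of every gene overlap, the 7 most abundant genes stand above the rest, and Atg9a, with 0 reads in 1 library, is the lowest.

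The ULK1 initiation complex (Ulk1, Ulk2, Atg13, Rb1cc1, Atg101) had 3 members fitted below 0 and 2 above, from -0.24 to 0.25, and none passed. Ulk1 (ENSMUSG00000029512, chr5:110931496-110957995), the kinase that starts autophagosome formation on starvation signals, stood at 21.5, 29.6, 36.5, 18.3 and 23.8 CPM in the 5XFAD libraries and at 17.6, 25.01, 26.4, 25.4 and 33.04 CPM in the 5XFAD;Neu cKO libraries. The highest value and the next to lowest were both 5XFAD libraries, and the groups overlapped over nearly their whole range (log2 fold change -0.03 ± 0.18 (SE), 95% interval -0.39 to 0.34, edgeR adjusted p = 0.991). Atg13 (ENSMUSG00000027244, chr2:91502602-91541186), the subunit that joins ULK1 to its scaffold, was among the 5 largest fitted differences. Its level was 22.9, 22.1, 25.3, 17.9 and 26.5 CPM in 5XFAD and 21.3, 24.6, 28.4, 37.2 and 24.4 CPM in 5XFAD;Neu cKO. The knockout value of replicate 4 was the highest of all 10, and the other 4 knockout values lay within or just above the control range. The log2 fold change of Atg13 was 0.25 ± 0.18, 95% interval -0.10 to 0.60 (edgeR adjusted p = 0.825), and without that library it was 0.11. Rb1cc1 (also FIP200), the large scaffold of the complex, was the second most abundant gene of the list at 196 ± 23.8 CPM in 5XFAD and 189 ± 7.06 CPM in 5XFAD;Neu cKO (mean ± SD, n = 5 each), and its log2 fold change was -0.06 ± 0.09. Ulk2, the paralogous kinase, ranged from 54.3 to 65.6 CPM with a log2 fold change of 0.11 ± 0.12, and Atg101, which stabilises Atg13, from 12.3 to 26.6 CPM with -0.24 ± 0.20. Ulk2 had a small spread in both groups, and its exact two-sided permutation p, unadjusted, was 0.0476 (n = 5 per group; under 0.05 for 2 of the 41 members, Ulk2 and Tax1bp1, and for 6.65% of all genes tested), while its edgeR adjusted p was 0.907.

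In the VPS34 lipid kinase complexes 4 of 6 genes were fitted below 0 and none passed. Becn1 (beclin 1, ENSMUSG00000035086, chr11:101176769-101193122), the scaffold of both forms of the complex, was measured at 54.1, 45.05, 59.1, 61.7 and 47.6 CPM in the 5XFAD libraries and at 41.3, 58.1, 54.6, 58.7 and 55.3 CPM in the 5XFAD;Neu cKO libraries. The group means were 53.5 ± 7.16 CPM in 5XFAD and 53.6 ± 7.098 CPM in 5XFAD;Neu cKO (mean ± SD, n = 5 each), and the lowest of the 10 values was knockout replicate 1. Becn1 had the fitted difference closest to 0 of the list, 0.00041 ± 0.13 on the log2 scale with a 95% interval of -0.26 to 0.26 (edgeR adjusted p = 0.9999). Atg14 (ENSMUSG00000037526, chr14:47778235-47808106), which directs the complex to autophagosome formation, was at 15.5, 20.6, 24.9, 11.9 and 20.4 CPM in 5XFAD and 14.4, 19.5, 17.1, 14.98 and 12.5 CPM in 5XFAD;Neu cKO. In 3 controls the value was above every knockout value, but the lowest of the 10 was also a control. Its log2 fold change was -0.26 ± 0.21, 95% interval -0.68 to 0.17 (edgeR adjusted p = 0.871); leaving out 5XFAD replicate 3 made it -0.12, and leaving out 5XFAD replicate 4 made it -0.38. Pik3c3, the catalytic subunit, had a log2 fold change of -0.12 ± 0.18 at 24.99 ± 5.76 CPM in 5XFAD and 22.9 ± 0.905 CPM in 5XFAD;Neu cKO (mean ± SD, n = 5 each). Its control values spread from 17.6 to 31.5 CPM while its knockout values stayed between 21.5 and 23.9 CPM. Pik3r4, the regulatory subunit VPS15, had a log2 fold change of -0.00071 ± 0.17. Uvrag, which replaces Atg14 in the endosomal form, had 0.03 ± 0.17, and Ambra1, a beclin 1 binding regulator, had -0.09 ± 0.21. Atg13 and Ambra1 lie 19108 bases apart on chromosome 2, and their fitted differences had opposite signs.

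Genes that supply membrane or read phosphatidylinositol 3-phosphate (Wipi1, Wipi2, Atg2a, Atg2b, Atg9a) were fitted from -0.22 to 0.11, with 3 of 5 below 0 and none past the threshold. Wipi2, which binds the lipid and recruits the conjugation complex, was the most abundant of them at 54.5 ± 10.3 CPM in 5XFAD and 58.2 ± 5.64 CPM in 5XFAD;Neu cKO (mean ± SD, n = 5 each), with a log2 fold change of 0.10 ± 0.13. Wipi1, its relative, had -0.06 ± 0.16. The lipid transfer proteins Atg2a and Atg2b were at 14.9 ± 3.800 and 13.3 ± 1.77 CPM in the 5XFAD libraries (mean ± SD, n = 5), with log2 fold changes of 0.11 ± 0.22 and -0.21 ± 0.23. Atg9a (ENSMUSG00000033124, chr1:75157503-75169327), the transmembrane lipid scramblase of the forming membrane, gave too few reads for a comparison. Its raw counts were 4, 1, 9, 4 and 11 in the 5XFAD libraries and 3, 12, 12, 2 and 0 in the 5XFAD;Neu cKO libraries. Both groups held libraries with almost no reads and libraries with more than 10, so a change of severalfold in either direction was not detectable at this depth (95% interval -2.17 to 1.74). The gene lies on the minus strand. On the same strand the span of Abcb6 begins, with its 5′ end, 451 bases past the 3′ end of Atg9a. The long noncoding gene Gm29253, also on that strand, overlaps Atg9a by 4288 bases. Abcb6 had 88 reads and Gm29253 3 reads in all, and the part of these neighbours in the low count was not tested.

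The conjugation machinery had log2 fold changes from -0.14 to 0.19 over its 7 genes, 3 below 0 and 4 above, and none passed. Atg5 (ENSMUSG00000038160, chr10:44142076-44240308), which forms the ligase-like complex with Atg12 and Atg16l1, was at 21.5, 27.5, 20.5, 22.6 and 24.01 CPM in the 5XFAD libraries and 18.3, 20.2, 24.8, 21.7 and 32.03 CPM in the 5XFAD;Neu cKO libraries. The lowest and the highest of the 10 values were both knockout libraries (log2 fold change 0.02 ± 0.18, 95% interval -0.34 to 0.38, edgeR adjusted p = 0.992). Atg16l1, which places the complex on the membrane, had the largest fitted difference of the set at 0.19 ± 0.15, with 1 knockout value (53.3 CPM, replicate 2) above all others. Without that library its log2 fold change was 0.059. Atg12, the ubiquitin-like protein joined to Atg5, had -0.14 ± 0.14 with a mean level of 41.8 ± 5.46 CPM in 5XFAD and 37.9 ± 3.06 CPM in 5XFAD;Neu cKO (mean ± SD, n = 5 each). Atg7, the E1-like enzyme that activates Atg12 and LC3, had 0.17 ± 0.24, and the E2-like enzymes Atg3 and Atg10 had 0.07 ± 0.18 and -0.10 ± 0.34. Atg4b, the protease that processes LC3 and GABARAP before conjugation and removes them afterwards, had -0.03 ± 0.17. Atg10 overlaps the opposite-strand ribosomal protein gene Rps23 by 2792 bases at its 3′ end, so its low count (2.69 to 10.3 CPM) is uncertain where reads were not split by strand.

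The LC3 and GABARAP genes, whose proteins coat the autophagosome and hold its cargo, included 3 of the 7 most abundant genes of the list, and 3 of the 5 were fitted above 0, with none past the threshold. Gabarapl1 (ENSMUSG00000030161, chr6:129509725-129520544), the most abundant of the list, was at 224, 259, 236, 216 and 223 CPM in the 5XFAD libraries and 218, 222, 224, 196 and 229 CPM in the 5XFAD;Neu cKO libraries. Controls held the 2 highest values and a knockout library the lowest, with the rest mixed. Its log2 fold change of -0.09 ± 0.08 came with 95% interval -0.26 to 0.08 (edgeR adjusted p = 0.893). Map1lc3a (LC3A, ENSMUSG00000027602, chr2:155118217-155119998) was at 119.6, 128, 124, 106 and 118 CPM in 5XFAD and 123, 119, 125, 127 and 134 CPM in 5XFAD;Neu cKO. The highest value was a knockout and the lowest a control, and the 8 values between them were mixed (log2 fold change 0.08 ± 0.09, 95% interval -0.11 to 0.26, edgeR adjusted p = 0.931). Map1lc3b (LC3B, ENSMUSG00000031812, chr8:122317100-122325499), the form most used as an autophagosome marker, was at 112, 119, 101, 96.2 and 112 CPM in 5XFAD and 106, 103.2, 124, 95.4 and 96.4 CPM in 5XFAD;Neu cKO. Knockout libraries held both the highest and the lowest value of Map1lc3b (log2 fold change -0.04 ± 0.10, 95% interval -0.24 to 0.16, edgeR adjusted p = 0.9754). Gabarap and Gabarapl2, at 40.9 ± 3.93 and 37.4 ± 4.52 CPM in 5XFAD (mean ± SD, n = 5), had log2 fold changes of 0.06 ± 0.14 and 0.09 ± 0.14.

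The make-up of this family varied little between libraries. Of the reads on the 5 genes, Gabarapl1 held 43.1% ± 1.14 (SD, n = 5) in 5XFAD and 41.1% ± 1.59 in 5XFAD;Neu cKO. Map1lc3a held 22.1% ± 0.705 and 23.7% ± 1.66, and Map1lc3b 20.1% ± 1.17 and 19.7% ± 1.30. The remaining share was split between Gabarap, at 7.64% ± 0.983 and 8.01% ± 0.741, and Gabarapl2, at 6.99% ± 1.09 and 7.48% ± 0.908. For Gabarapl1 the group means lay further apart than the SD of either group, and for Map1lc3a further apart than the 5XFAD SD only. For the other genes they lay closer than either SD. These shares were not tested.

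**Figure D4:**
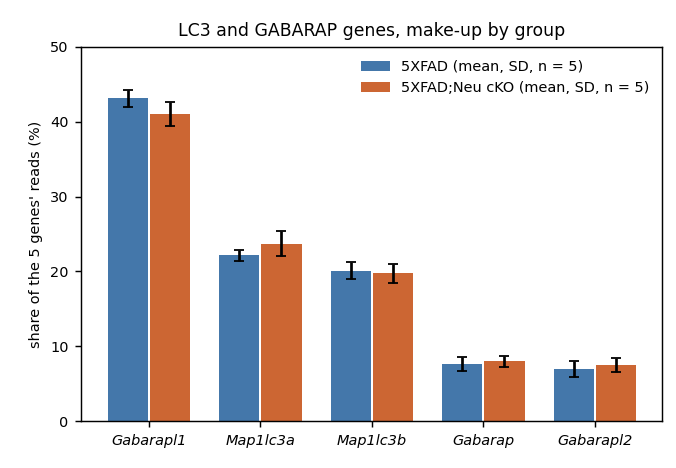
Share of the reads on the 5 LC3 and GABARAP genes held by each (vertical, percent; bars are means of 5 libraries and error bars are SD; 5XFAD in blue, 5XFAD;Neu cKO in orange). Gabarapl1 holds the largest share in both groups (43.1% and 41.1%), and Gabarap and Gabarapl2 the smallest.

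Of the cargo receptors, 4 of 5 were fitted below 0 and Nbr1 above, and none passed the threshold. Sqstm1 (p62, ENSMUSG00000015837, chr11:50089572-50107684), which binds ubiquitinated aggregates and LC3 and is itself degraded by autophagy, was at 169, 192, 162, 181 and 165 CPM in the 5XFAD libraries and 157, 171, 181, 163 and 187 CPM in the 5XFAD;Neu cKO libraries. Its values were interleaved, and the log2 fold change was -0.02 ± 0.09, 95% interval -0.19 to 0.16 (edgeR adjusted p = 0.9901). Nbr1 (ENSMUSG00000017119, chr11:101442962-101472781), a receptor related to p62, was at 35.3, 24.4, 40.5, 40.8 and 30.97 CPM in 5XFAD and 36.8, 45.1, 45.8, 36.3 and 44.96 CPM in 5XFAD;Neu cKO. The values of 3 knockout libraries were above all controls, 3 controls were below all knockouts, and the remaining 4 overlapped. At 0.28 ± 0.15 (95% interval -0.02 to 0.57), the log2 fold change of Nbr1 had an unadjusted p of 0.0667 and an edgeR adjusted p of 0.677, and without 5XFAD replicate 2 it was 0.18. Tax1bp1 (ENSMUSG00000004535, chr6:52690676-52745153), a ubiquitin-binding receptor of aggregates and damaged organelles, had the smallest unadjusted p of the list, 0.0592, with an edgeR adjusted p of 0.658. It stood at 195, 187, 168, 181 and 174 CPM in 5XFAD and 159, 137, 179, 171 and 157 CPM in 5XFAD;Neu cKO. The 3 highest values were controls and the 3 lowest knockouts, and the 4 between them were mixed. For Tax1bp1 the log2 fold change was -0.17 ± 0.09 (95% interval -0.35 to 0.007), and its exact two-sided permutation p, unadjusted, was 0.0476 (n = 5 per group). Optn (optineurin, ENSMUSG00000026672, chr2:5022703-5068945), a receptor for damaged mitochondria and bacteria, was low, at 5.81, 8.21, 3.804, 6.34 and 8.08 CPM in 5XFAD and 6.54, 7.17, 6.83, 3.702 and 6.32 CPM in 5XFAD;Neu cKO. Each group had a library below 4 CPM and the rest between 5.81 and 8.21 CPM (log2 fold change -0.06 ± 0.34, 95% interval -0.75 to 0.62, edgeR adjusted p = 0.9896). Calcoco1, a receptor for parts of the endoplasmic reticulum and Golgi, ranged from 5.75 to 12.5 CPM with a log2 fold change of -0.04 ± 0.28.

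Among the genes for fusion with the lysosome, Epg5 and Snap29 were 2 of the 5 largest fitted differences of the list, with opposite signs. Epg5 (ENSMUSG00000039840), a tether that brings the autophagosome to the late endosome or lysosome, was at 14.3, 11.5, 19.7, 21.6 and 21.1 CPM in the 5XFAD libraries and 13.1, 13.2, 14.4, 12.3 and 15.4 CPM in the 5XFAD;Neu cKO libraries. Values in 3 controls were above every knockout value and the lowest value was also a control, and the knockout values lay close together. Its log2 fold change was -0.37 ± 0.22 with 95% interval -0.80 to 0.06, an unadjusted p of 0.0921 and an edgeR adjusted p of 0.734. Snap29 (ENSMUSG00000022765, chr16:17223846-17251065), a SNARE of the fusion complex, was at 11.8, 15.02, 18.1, 13.05 and 12.3 CPM in 5XFAD and 19.4, 17.7, 13.7, 20.4 and 14.8 CPM in 5XFAD;Neu cKO. The 2 highest values were knockouts and the 4 lowest included 3 controls and 1 knockout (log2 fold change 0.28 ± 0.21, 95% interval -0.15 to 0.71, edgeR adjusted p = 0.853). Stx17 (syntaxin 17, ENSMUSG00000061455, chr4:48124908-48186507), the SNARE on the autophagosome, was at 20.2, 20.6, 21.1, 21.4 and 24.7 CPM in 5XFAD and 26.2, 23.9, 15.4, 23.9 and 17.4 CPM in 5XFAD;Neu cKO. Control values other than that of replicate 5 lay between 20.2 and 21.4 CPM, and the knockout values spread below and above them (log2 fold change -0.02 ± 0.19, 95% interval -0.39 to 0.35, edgeR adjusted p = 0.992). Vamp8, the SNARE on the lysosome, was at 2.52 to 7.98 CPM (log2 fold change -0.16 ± 0.41, 95% interval -0.97 to 0.66).

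The 4 mitophagy genes were fitted from -0.17 to 0.005. Pink1 (ENSMUSG00000028756, chr4:138039346-138053618), the kinase that accumulates on damaged mitochondria and marks them for removal, was at 130.2, 152, 150.0, 148 and 134 CPM in the 5XFAD libraries and 129, 138, 144, 149 and 155 CPM in the 5XFAD;Neu cKO libraries. The group means of 143 ± 9.82 CPM in 5XFAD and 143 ± 10.2 CPM in 5XFAD;Neu cKO (mean ± SD, n = 5 each) nearly coincided (log2 fold change 0.005 ± 0.09, 95% interval -0.18 to 0.19, edgeR adjusted p = 0.997). Bnip3 (ENSMUSG00000078566, chr7:138490690-138511253), a receptor on the outer mitochondrial membrane that hypoxia induces, was at 43.02, 40.8, 41.7, 37.1 and 36.1 CPM in 5XFAD and 38.1, 44.5, 41.5, 36.7 and 34.6 CPM in 5XFAD;Neu cKO. Knockout libraries held both its highest and its lowest value (log2 fold change -0.03 ± 0.14, 95% interval -0.30 to 0.25, edgeR adjusted p = 0.9896). Its relative Bnip3l (NIX) had a log2 fold change of -0.08 ± 0.14 at 41.8 ± 6.78 CPM in 5XFAD and 39.4 ± 5.98 CPM in 5XFAD;Neu cKO (mean ± SD, n = 5 each). Fundc1, a further receptor on that membrane, had -0.17 ± 0.17 at 32.4 ± 6.504 CPM in 5XFAD and 28.8 ± 8.74 CPM in 5XFAD;Neu cKO (mean ± SD, n = 5 each).

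Genes of the pathway outside the 41 were examined in 3 further lists. Of 25 other core autophagy genes, 10 were fitted below 0 and 15 above, with a median log2 fold change of 0.044. Of 24 other receptors and mitophagy genes, 12 were below and 12 above, with a median of 0.0090. Of 35 genes of mTORC1, AMPK and TFEB, which govern when autophagy starts, 15 were below and 20 above, with a median of 0.024. Over these 84 genes the count past the threshold was 0, and 2 of the 84, both in the last list, had an unadjusted p under 0.05. Rheb, the small GTPase that activates mTORC1, was at 40.1, 21.8, 41.98, 50.3 and 21.99 CPM in 5XFAD and 48.8, 38.99, 61.6, 45.3 and 51.3 CPM in 5XFAD;Neu cKO. The 2 lowest values were controls, 2 knockouts were the highest, and the groups overlapped (log2 fold change 0.47 ± 0.16, unadjusted p = 0.00582, edgeR adjusted p = 0.373). Stk11 (LKB1), the kinase that activates AMPK, was at 39.9, 39.2, 51.9, 39.5 and 48.7 CPM in 5XFAD and 26.5, 34.8, 36.9, 40.05 and 40.4 CPM in 5XFAD;Neu cKO. The values of 3 knockout libraries were below all controls, and the others overlapped (log2 fold change -0.30 ± 0.14, unadjusted p = 0.0441, edgeR adjusted p = 0.612). In the core list the smallest p-values were those of Vps39, a subunit of the HOPS tether, with a log2 fold change of -0.37 ± 0.19 (edgeR adjusted p = 0.647), and Atg4c, a relative of Atg4b, with 0.43 ± 0.23 (edgeR adjusted p = 0.684). From the receptor list, Tollip, a ubiquitin-binding receptor, had a log2 fold change of 0.27 ± 0.16 (edgeR adjusted p = 0.739).

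**Figure D5:**
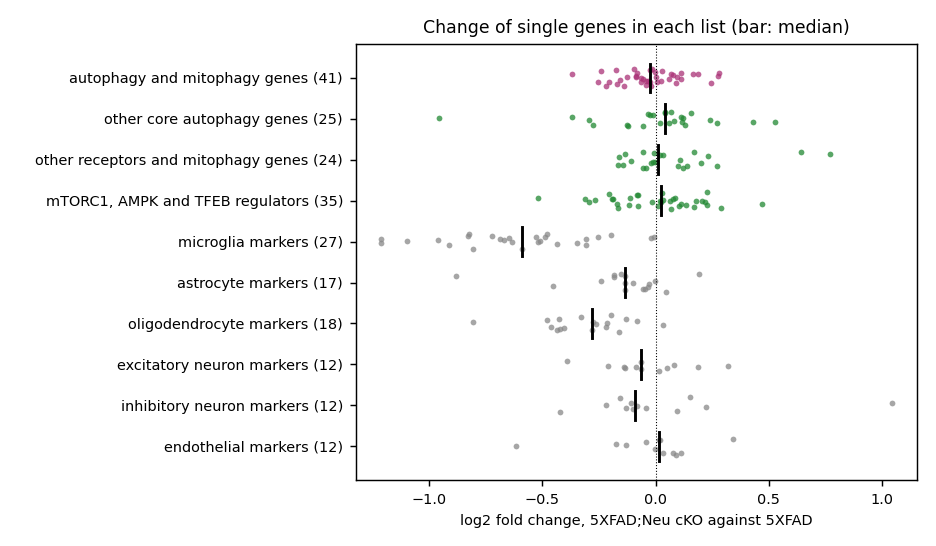
Log2 fold change of single genes (horizontal, 5XFAD;Neu cKO against 5XFAD, edgeR) for the 41 autophagy and mitophagy genes (magenta), 3 further pathway lists (green) and 6 cell type marker lists (grey), 1 point per gene tested with the number in brackets and a black bar at the median. The autophagy lists have medians between -0.026 and 0.044, and the microglia markers have a median of -0.59.

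The microglia markers moved with the groups while the autophagy lists had medians near 0, and the part of the microglia in the values of single autophagy genes was not tested. The coefficient of variation between libraries was larger in 5XFAD than in 5XFAD;Neu cKO for 23 of the 41 members, and for 54.2% of all genes tested. The 41 genes lie on 18 chromosomes, with 6 on chromosome 11. Another gene lay within 1000 bases before or 500 bases after the 3′ end of 17 members, on the opposite strand for 14 of them, and the strand setting of the counting was not given in the sources used here. The largest of these opposite-strand overlaps with a counted gene was that of Becn1 with Cntd1 (10375 bases, 28 reads on Cntd1 against 3136 on Becn1). Other such neighbours held many more reads. Atg13 overlaps Arhgap1 by 3412 bases (1744 reads on Arhgap1 against 1467 on Atg13). Pink1 overlaps Ddost by 1514 bases (2154 reads on Ddost against 8322 on Pink1). The part of these neighbours in the members' counts was not tested.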

How the data were processed

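The 10 libraries were labelled as 5XFAD or 5XFAD;Neu cKO, and groups were taken from those labels. The authors deposited raw read counts per gene for each library. Per the study's methods, 75-base QuantSeq reads were trimmed with bbduk, mapped to GRCm39 with STAR (2.7.3a) and counted with htseq-count. The submitters' processing notes give HTSeq 0.9.1, whereas the study's methods name a later version. Ensembl identifiers were given symbols and positions from GENCODE vM39 on the same build.

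Genes with more than 10 reads over the 10 libraries were fitted with edgeR 4.0.16 in R 4.3.3 (TMM, glmQLFit and glmQLFTest, group as the only term), with Benjamini-Hochberg adjustment over 19268 genes and a threshold of 0.05. CPM used TMM library sizes. Standard errors were the log2 fold change divided by the square root of F. Single values were also given an exact two-sided permutation test over 252 relabellings of log2(CPM + 0.5). Intervals and p-values cover the spread between these libraries (5 mice per group by the study's account), whose depth limits genes with few reads. Libraries of a group differed beyond counting noise (smallest chi-square per degree of freedom 5.88 over 20 pairs), so none was treated as a copy of another.

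The 41 genes, their roles and all lists were chosen with earlier results of these data known. Given in every library were members past the threshold, at an unadjusted p under 0.05 or with groups that did not overlap (none in each case), the 5 largest absolute log2 fold changes (Epg5, Snap29, Nbr1, Atg14, Atg13) and 12 members fixed by role. Tax1bp1 was added after its values were seen. From each other list the 2 smallest p-values were named, except that 1 gene is not reported here. Alternatives were DESeq2 1.42.0, its size factors, other filters, a robust fit, no mitochondrial genes, a replicate block and each library left out. Same-numbered libraries did not deviate together (correlations from -0.078 to 0.054 over 8841 genes), so the numbers were not taken to pair them. Planned protein sequences were not used here.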

Additional observations from a re-analysis of the deposited data

Results flagged for a closer look

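In 5 of 82 groups of 5 libraries (41 genes in each condition) 1 library stood apart from the rest of its group by Dixon's criterion, which flags about 1 group in 20 by chance. Becn1 was lowest in 5XFAD;Neu cKO replicate 1 at 41.3 CPM, with the nearest library at 54.6 CPM. Atg7 was lowest in 5XFAD replicate 5 at 7.18 CPM, against 13.4 CPM for the nearest. Optn and Vamp8 were both lowest in 5XFAD;Neu cKO replicate 4, at 3.70 CPM (nearest 6.32) and 2.52 CPM (nearest 4.41). Stx17 was highest in 5XFAD replicate 5 at 24.7 CPM, with the nearest at 21.4 CPM.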

How the results depend on the processing

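No member and no gene of the 3 other pathway lists passed the threshold under any of the 17 alternatives, and the lowest adjusted p of a member was 0.403 (Tax1bp1, DESeq2), where 14 members had no adjusted p. The count of all genes past the threshold was 42 as reported, 73 with DESeq2, 103 without a filter on low counts, 112 with the replicate block, and 26 to 72 with 1 library left out (26 without 5XFAD replicate 2, 27 without 5XFAD;Neu cKO replicate 4 or 5 and 72 without 5XFAD;Neu cKO replicate 1). Members at an unadjusted p under 0.05 were 1 with DESeq2, 1 with the robust fit (Tax1bp1 in both) and 0 to 2 with a library left out. Among these, Nbr1 reached an unadjusted p of 0.0359 without 5XFAD replicate 4 and Epg5 one of 0.0280 without 5XFAD replicate 2. Members fitted below 0 numbered 17 to 26, and their median log2 fold change ran from -0.058 to 0.022, with a library left out. With the replicate block no member was called, Rheb had an adjusted p of 0.0527, and no library correlated best with its own number. The causes of these differences were not tested.

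The sign of the log2 fold change was kept for 20 members and turned for 21 in at least 1 alternative. The ranges with a library left out were Ulk1 -0.14 to 0.14, Becn1 -0.055 to 0.079, Pik3r4 -0.10 to 0.17, Uvrag -0.11 to 0.18, Ambra1 -0.19 to 0.037, Wipi1 -0.15 to 0.063, Wipi2 -0.0037 to 0.16, Atg2a -0.0016 to 0.23, Atg9a -0.78 to 0.30, Atg3 -0.082 to 0.18, Atg4b -0.14 to 0.075, Atg5 -0.12 to 0.097, Atg10 -0.30 to 0.059, Sqstm1 -0.047 to 0.022, Optn -0.21 to 0.071, Calcoco1 -0.13 to 0.10, Stx17 -0.11 to 0.079, Vamp8 -0.32 to 0.083, Pink1 -0.027 to 0.040, Bnip3 -0.076 to 0.015 and Bnip3l -0.16 to 0.011. Among members that kept their sign, the ranges included Atg14 (-0.38 to -0.12), Fundc1 (-0.35 to -0.071), Atg7 (0.020 to 0.33) and Nbr1 (0.18 to 0.34). Pik3r4 also turned with DESeq2 (0.00078), with its size factors (0.00017) and with the replicate block (0.029), and Becn1 with filterByExpr (-0.0011) and without mitochondrial genes (-0.00062). Depth limits the 5 members under 10 CPM most, and for Atg9a, with 58 reads, no direction can be given.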
